A study of Homo sapiens with 4 samples.

Results

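The 9 epithelial keratin genes KRT7, KRT8, KRT18, KRT19, KRT20, KRT23, KRT80, KRT81 and KRT86 were chosen by name, and all were found among the 29286 genes listed for each library. They were followed in HCT116, an established human colorectal carcinoma line. HCT116 cells infected with lentivirus for a short hairpin against WDR43 (shWDR43, labelled WDR43 knockdown, 2 libraries) were compared with cells infected for a control hairpin (shNC, titled shNC2, labelled Control, 2 libraries). WDR43 is a nucleolar protein needed for assembly of the small ribosomal subunit. All cells had 48 h of infection and 3 days of puromycin, so the controls carried the infection and the selection too. Levels are given in FPKM, which scales fragments for transcript length and library total, so that genes can be set beside each other.

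Keratins are the intermediate filament proteins of epithelial cells. Acidic type I and basic type II chains pair as obligate partners and build filaments that brace the cell and are anchored at desmosomes and hemidesmosomes. KRT8 (type II) and KRT18 (type I) are the founding pair of simple epithelia such as the gut lining, KRT19 is a short type I chain of the same tissues, and KRT20 is a type I chain of differentiated intestinal cells. KRT7 is a type II chain of ductal epithelia, generally scarce in colon epithelium. KRT23 (type I) and KRT80 (type II) are less studied epithelial chains, and KRT81 and KRT86 are type II chains of the hair cortex.

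The labelled identity was checked against fixed markers. EPCAM, an epithelial adhesion molecule, was at 160 and 159 FPKM in shWDR43 and at 155 and 181 FPKM in shNC. Of the 9 intestinal epithelial markers, 7 were tested and the enterocyte markers VIL1 and LGALS4 were near 0, at or below 0.0708 FPKM in every library. Among the others, the epithelial factor ELF3 was at 79.4 and 79.6 FPKM in shWDR43 and 70.2 and 73.2 FPKM in shNC. The intestinal factor CDX2 was at 1.59 and 1.69 FPKM in shWDR43 and 1.65 and 1.74 FPKM in shNC, so the list was present in part. Markers of other cells were low: 1 of 6 listed fibroblast markers (COL1A1, 5.69 to 7.80 FPKM over the 4 libraries) and none of the 3 leukocyte and 4 endothelial markers listed reached 1 FPKM in any library, with LUM at 0 throughout. Libraries of the same group lay closest together, with an SD of the log2 difference across genes of 0.177 for shWDR43 and 0.245 for shNC, against 0.281 to 0.317 between groups. The level of WDR43 was not analysed here, so the knockdown could not be checked. Nothing in the labels tells if the replicates were grown apart, how many hairpins were used or whether clones were picked. The p-values therefore rest on the scatter of these 4 libraries, and that scatter may be technical.

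KRT7 and KRT8 rose in shWDR43 cells, KRT7 to 2.08 times and KRT8 to 1.41 times the shNC mean. These were 2 of the 6 keratins tested, with 0 that fell and 4 that did not pass (limma, adjusted p below 0.05). Over all 13303 tested genes 4.79% rose and 1.47% fell. At an unadjusted p below 0.05 the count was 4 of 6, against 26.4% of all tested genes. KRT20, KRT81 and KRT86 did not reach 1 FPKM in 2 libraries and were not tested. The median log2 difference was 0.40 over the 6 tested keratins and 0.05 over all tested genes. In 5 of the 9 genes (KRT7, KRT8, KRT18, KRT19 and KRT20) both shWDR43 libraries were above both shNC libraries, which held for 35.8% of all tested genes and for 13.8% of genes below the expression filter (1 FPKM in 2 libraries). The reverse held for 0 of the 6 tested keratins and for 21.5% of all tested genes. In bulk RNA, a change in the number of cells that express a gene and a change in RNA per cell cannot be told apart.

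**Figure D1:**
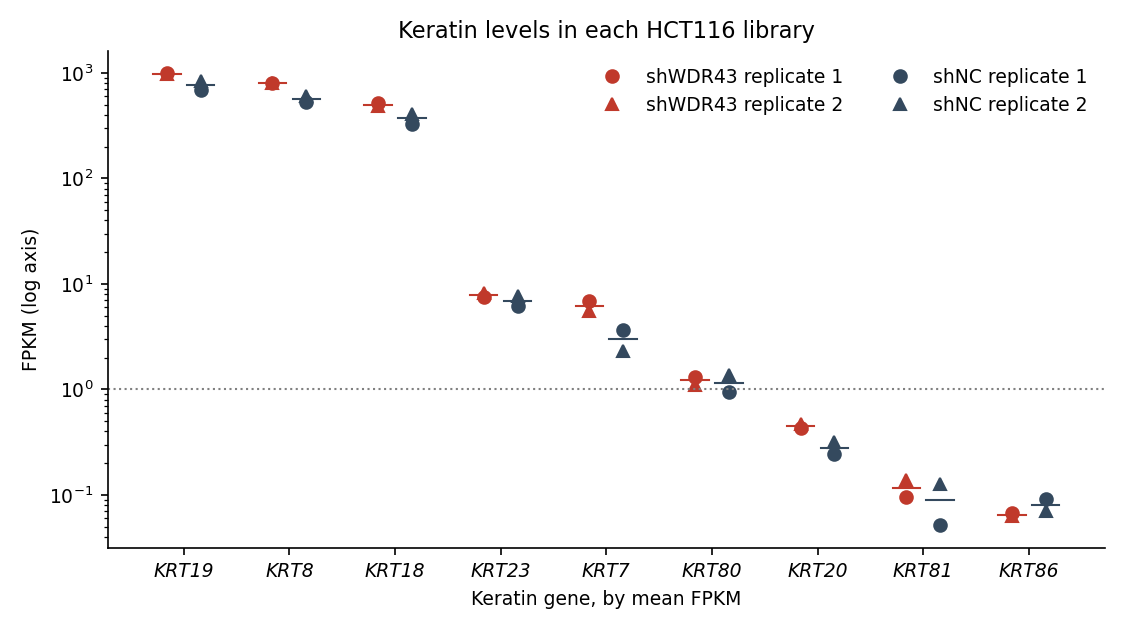
FPKM (log axis) of the 9 keratin genes in each library, with shWDR43 on the left and shNC on the right of each gene, circles for replicate 1, triangles for replicate 2, short lines for group means and a dotted line at 1 FPKM. KRT19, KRT8 and KRT18 lie between 328 and 991 FPKM, and KRT23 and the other members lie below 10 FPKM.

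Nearly all transcript of the 9 genes came from 3 of them. KRT8, KRT18 and KRT19 made up 99.3% and 99.3% of the summed FPKM of the 9 genes in shWDR43, and 99.3% and 99.4% in shNC. Of the summed FPKM of all listed keratins they made up 97.7% and 97.8% in shWDR43, and 97.8% and 97.5% in shNC. Among the 9 genes, the order of level was KRT19, KRT8, KRT18, KRT23, KRT7, KRT80, KRT20, KRT81 and KRT86. Each gene's libraries lay above those of the next within each group, except that KRT81 and KRT86 overlapped in shNC. By mean FPKM KRT19 ranked 47, KRT8 65 and KRT18 101 among the 13303 tested genes. The sum of the 9 genes was 2327 and 2268 FPKM in shWDR43 and 1566 and 1866 FPKM in shNC, or 0.565% and 0.564% of all FPKM against 0.398% and 0.451%. The shNC libraries thus differed more from each other than the shWDR43 libraries did, but both lay below them.

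KRT8 (ENSG00000170421) lies on chromosome 12 at 52897187 to 52949954, minus strand, in GENCODE release 29 of GRCh38. It had 807 and 798 FPKM in shWDR43, against 531 and 603 FPKM in shNC. All shWDR43 values were above the shNC values, and the shWDR43 libraries were almost level with each other. The means were 802 ± 6.12 and 567 ± 50.6 FPKM (SD, n = 2 each), a log2 change of 0.50 ± 0.11 (SE; limma adjusted p = 0.0480). That call was close to the threshold. It was lost without shWDR43 replicate 1 (adjusted p = 0.380) or replicate 2 (0.342), under median-ratio (0.0890) and upper-quartile scaling (0.0648), with the replicate number as a block (0.118) and without the expression filter (0.130), while the difference stayed between 0.41 and 0.59 under every alternative.

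Of the 9 genes, KRT8 and KRT20 have an entry in the RefSeq promoter table (GRCh38.p14). The 250 bases before a KRT8 start are shown as the upstream sequence of the abundant keratin that passed the test. They lie at chr12:52926470-52926719 on the minus strand, within the span of the gene, and belong to 1 of several annotated KRT8 starts, among which FPKM per gene does not distinguish.
KRT8: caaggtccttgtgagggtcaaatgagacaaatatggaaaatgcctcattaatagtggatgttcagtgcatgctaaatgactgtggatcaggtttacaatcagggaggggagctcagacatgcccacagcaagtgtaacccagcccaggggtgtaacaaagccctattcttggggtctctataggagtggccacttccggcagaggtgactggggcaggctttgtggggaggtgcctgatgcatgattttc
An AP-1 element (TGANTCA), a GC box (GGGCGG) and a TATA box (TATAAA) were searched on both strands of the 300-base windows, and none was present for KRT8 or KRT20. Over all 35116 windows, 7.7% held the AP-1 letters, 45.0% the GC box and 11.5% the TATA box. Capitals would have marked matches, so the sequence has none.

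KRT18 (ENSG00000111057; chromosome 12, 52948871 to 52952901, plus strand), the type I partner of KRT8, had 514 and 485 FPKM in shWDR43, against 328 and 411 FPKM in shNC. The groups did not overlap, but the lower shWDR43 library was only 1.18 times the higher shNC library. The means were 499 ± 20.0 and 370 ± 58.6 FPKM (SD, n = 2 each). The log2 difference of 0.44 ± 0.13 (SE) did not pass (limma adjusted p = 0.0870). It passed without shNC replicate 1 (0.28, adjusted p = 0.0366) or shNC replicate 2 (0.60, adjusted p = 0.00310), and with a crossed replicate block, which pairs unlike replicate numbers (0.0229).

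KRT19 (ENSG00000171345; chromosome 17, 41523617 to 41528308, minus strand) was the most abundant keratin, with 991 and 969 FPKM in shWDR43, against 696 and 840 FPKM in shNC. Its groups did not overlap either, and the means were 980 ± 15.1 and 768 ± 102 FPKM (SD, n = 2 each). The log2 difference of 0.36 ± 0.13 (SE) did not pass (limma adjusted p = 0.129), but did so without shNC replicate 2 (0.49, adjusted p = 0.00414).

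That KRT8 passed and its partner did not is no test of a difference between them. The ratio of KRT8 to KRT18 was 1.57 and 1.64 in shWDR43 and 1.62 and 1.47 in shNC, which overlap. The ratio of KRT19 to KRT8 was 1.23 and 1.21 in shWDR43 and 1.31 and 1.39 in shNC, lower in both shWDR43 libraries. Summed over all listed keratins, type II over type I was 0.526 and 0.538 in shWDR43 and 0.509 and 0.469 in shNC. An exact two-sided permutation test of 2 libraries against 2 cannot go below p = 0.333, so these ratios are descriptions.

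**Figure D2:**
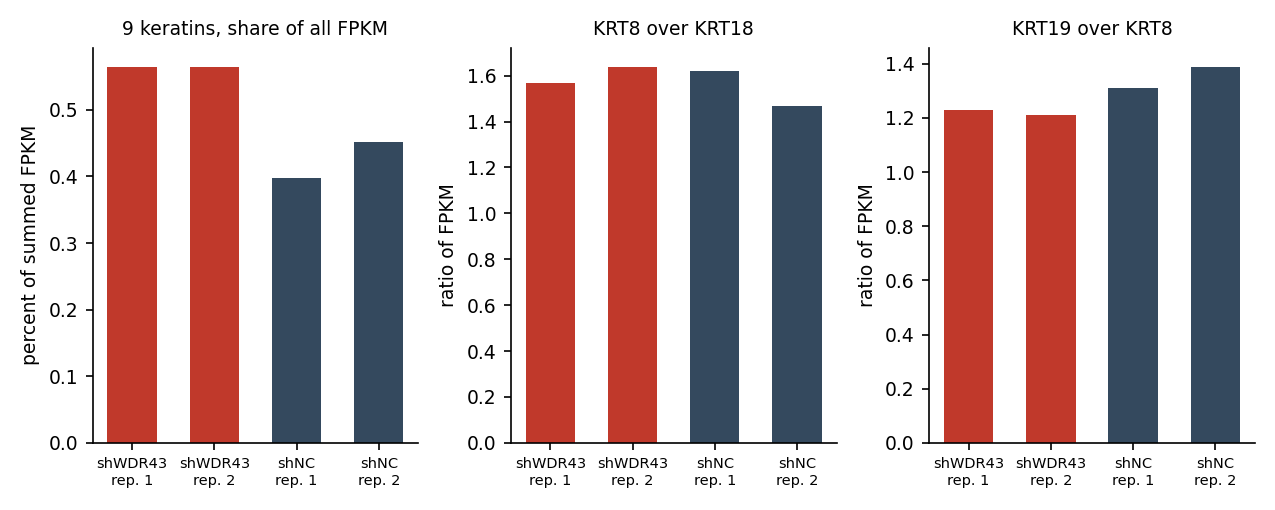
The left panel shows the summed FPKM of the 9 keratins as a percent of all FPKM in each library, and the other panels the ratio of KRT8 to KRT18 FPKM and of KRT19 to KRT8 FPKM, with shWDR43 libraries left of shNC libraries. The keratin share is higher in both shWDR43 libraries (0.565% and 0.564%) than in shNC (0.398% and 0.451%), and the ratio of KRT8 to KRT18 overlaps between groups.

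Neighbouring genes and copies limit these levels. KRT8 and KRT18 share 525 exon bases on opposite strands, which is 7.63% of the exon bases of KRT8 and 16.3% of those of KRT18. Whether reads were counted by strand is not stated in the sources used here, and reads from that stretch may belong to either gene. KRT8 and KRT18 also have many processed pseudogenes. The 19 listed KRT8 pseudogenes summed to 3.67 and 3.63 FPKM in shWDR43 and 4.53 and 3.37 FPKM in shNC, at most 0.853% of KRT8 itself. The 14 listed KRT18 pseudogenes summed to 1.65 and 1.62 FPKM in shWDR43 and 2.44 and 2.03 FPKM in shNC, at most 0.742% of KRT18. The closest copy of the KRT8 coding sequence, KRT8P3, matched it at 97.1% over 1449 bases and reached at most 0.717 FPKM. KRT8P33, the only such pseudogene tested, was at 0.853 and 1.21 FPKM in shWDR43 and 2.05 and 1.10 FPKM in shNC, and did not pass (limma adjusted p = 0.356).

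KRT7 (ENSG00000135480; chromosome 12, 52232520 to 52252186, plus strand) had the largest log2 difference of the tested members. It was at 6.94 and 5.51 FPKM in shWDR43, against 3.66 and 2.31 FPKM in shNC. Both shWDR43 values were above both shNC values, although the shNC libraries themselves differed 1.59-fold. The means were 6.23 ± 1.01 and 2.99 ± 0.957 FPKM (SD, n = 2 each), a log2 change of 0.87 ± 0.18 (SE; limma adjusted p = 0.0356). The call was lost without the expression filter (adjusted p = 0.146), and it held under the other 11 alternatives, with log2 changes of 0.62 to 1.12. The antisense gene KRT7-AS overlaps 6.89% of the exon bases of KRT7 and was at 0.403 and 0.317 FPKM in shWDR43 and 0.215 and 0.123 FPKM in shNC. KRT7-AS was listed far below KRT7, and it too was higher in both shWDR43 libraries, at 2.13 times its shNC mean. Reads of KRT7 and KRT7-AS from the shared stretch cannot be told apart without strand. Both listed levels depend on how such reads were assigned, and the effect was not tested.

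**Figure D3:**
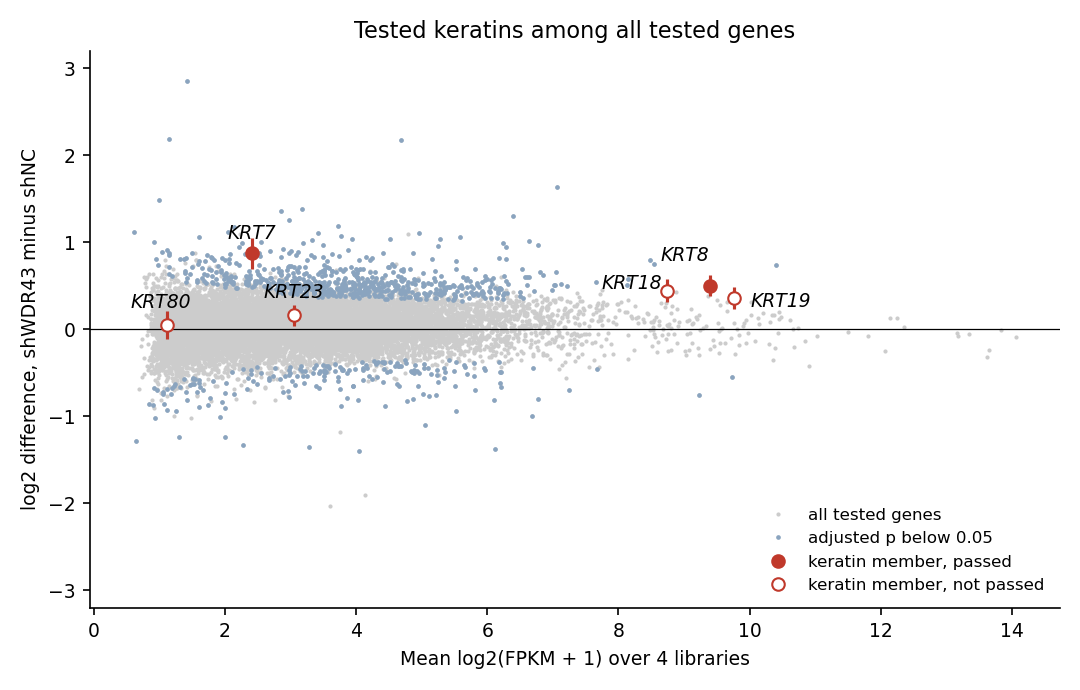
Each point is a tested gene, by its mean log2(FPKM + 1) over the 4 libraries and its log2 difference, shWDR43 minus shNC; red circles with SE bars are the 6 tested keratins, filled where the adjusted p is below 0.05. KRT7 (0.87) and KRT8 (0.50) are filled, KRT18 (0.44) and KRT19 (0.36) are open beside KRT8 at the abundant end, and KRT23 (0.16) and KRT80 (0.04) lie near the line at 0.

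KRT20 (ENSG00000171431; chromosome 17, 40875941 to 40885227, minus strand), the marker of differentiated intestinal cells, was scarce, at 0.435 and 0.472 FPKM in shWDR43 and 0.243 and 0.314 FPKM in shNC. The shWDR43 libraries were both higher, at 1.63 times the shNC mean. KRT20 was below the filter, and in the fit without a filter its log2 difference was 0.19 ± 0.11 (SE; limma adjusted p = 0.488).

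KRT23 and KRT80 did not separate the groups. KRT23 (ENSG00000108244; chromosome 17, 40922696 to 40937634) was at 7.47 and 8.12 FPKM in shWDR43 and 6.17 and 7.63 FPKM in shNC, a log2 difference of 0.16 ± 0.12 (SE; limma adjusted p = 0.426). KRT80 (ENSG00000167767; chromosome 12, 52168996 to 52192000) was at 1.32 and 1.11 FPKM in shWDR43 and 0.939 and 1.38 FPKM in shNC, a log2 difference of 0.04 ± 0.16 (SE; adjusted p = 0.891). For both genes the groups overlapped, and the sign of the KRT80 difference turned when shWDR43 replicate 1 (-0.02) or shNC replicate 1 (-0.10) was left out.

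The hair keratins KRT81 (ENSG00000205426; chromosome 12, 52285913 to 52291534, minus strand) and KRT86 (ENSG00000170442; chromosome 12, 52249300 to 52309163, plus strand) were barely detected. KRT81 was at 0.0958 and 0.137 FPKM in shWDR43 and 0.0516 and 0.126 FPKM in shNC, and the groups overlapped. KRT86 was at 0.0676 and 0.0628 FPKM in shWDR43 and 0.0914 and 0.0709 FPKM in shNC, the only member with both shWDR43 libraries below both shNC libraries, which held for 21.2% of genes below the filter. KRT81 lies within the span of KRT86 on the opposite strand, with no shared exon bases, but their sequences are close copies. Their coding sequences, of 1518 and 1461 bases, were identical at 93.6% of 1457 aligned bases, the closest of all member pairs, while KRT7 and KRT8 matched at 72.9% and KRT18 and KRT19 at 62.7%. Fragments from stretches that the genes share can fit either gene, so the levels of KRT81 and KRT86 are uncertain as well as low.

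The calls on the tested keratins depended on the setting in different ways. KRT7 kept its call in 11 of 12 alternatives and KRT8 in 6 of 12. KRT18 was called in 3 of 12 and KRT19 in 1 of 12. The KRT19 call, and all KRT18 calls but that with the crossed block, came with an shNC library left out. Those fits draw their scatter from shWDR43 alone. KRT23 was never called in 12 and KRT80 was never called in 11, since it did not pass a filter at 5 FPKM. No alternative turned the sign of KRT7, KRT8, KRT18, KRT19 or KRT23.

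**Figure D4:**
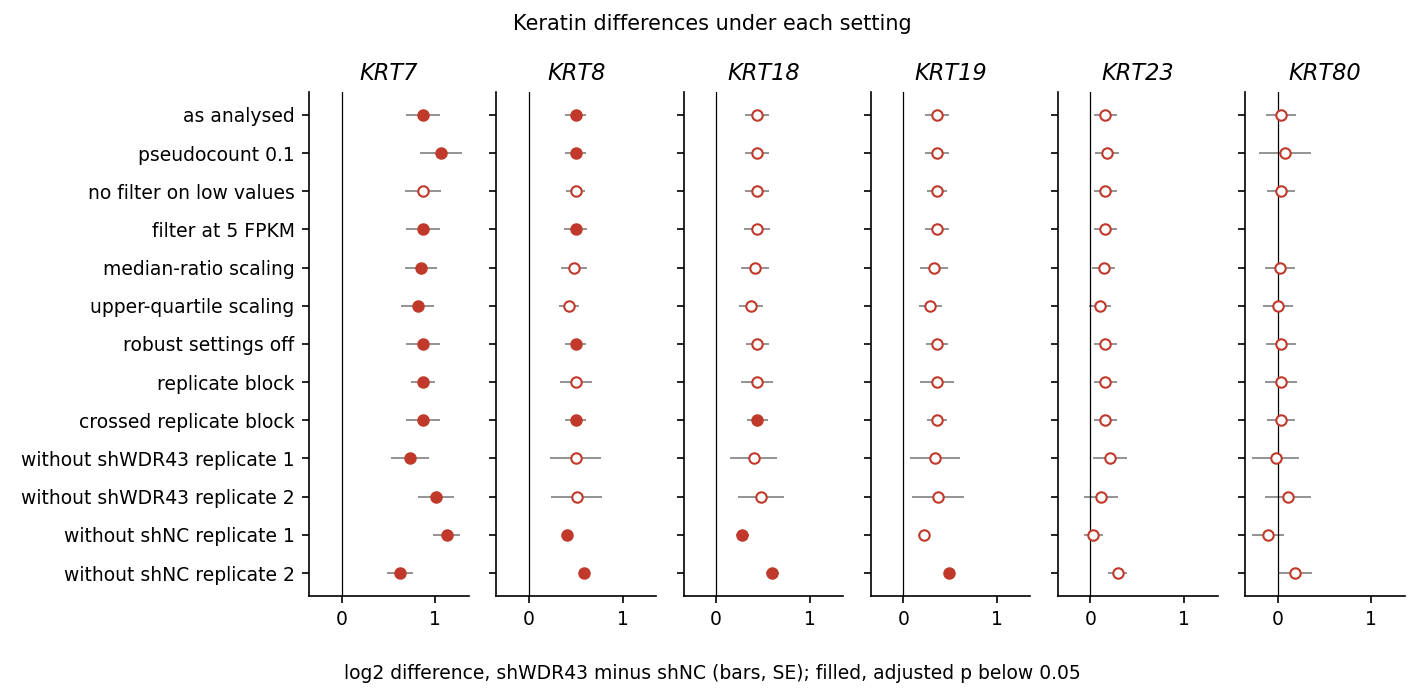
Log2 difference, shWDR43 minus shNC, with SE bars, for the 6 tested keratins (panels) under each setting (rows), filled where the limma adjusted p is below 0.05. KRT7 is filled in all rows but the one with no filter on low values, KRT8 in 7 of 13 rows, and KRT80 lies on both sides of 0.

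Other keratins were read for comparison. Of the 54 keratin genes of the type I and type II lists, 27 were listed, 9 were tested and 2 were at 0 in every library. Outside the 9 members, 3 were tested. KRT15, a type I chain of basal epithelial cells, was at 29.7 and 27.5 FPKM in shWDR43 and 18.3 and 21.8 FPKM in shNC, and rose with a log2 change of 0.49 ± 0.10 (SE; limma adjusted p = 0.0379). Its call was lost without shWDR43 replicate 1 (adjusted p = 0.125), without the filter (0.142) and under median-ratio (0.0631) and upper-quartile scaling (0.0569). KRT13, a type I chain of stratified mucosa, was at 1.38 and 1.12 FPKM in shWDR43 and 0.559 and 0.553 FPKM in shNC and did not pass (log2 difference 0.53, limma adjusted p = 0.0797). The KRT13 difference was 1.04 with a pseudocount of 0.1 (adjusted p = 0.0812), and it passed with the crossed replicate block (0.0491). KRT13 met the expression filter only through its shWDR43 libraries, where it was higher. Its p-values, that pass included, therefore do not support a rise. KRT10, a type I chain of differentiated epidermis, was at 4.66 and 4.37 FPKM in shWDR43 and 4.11 and 11.7 FPKM in shNC, where shNC replicate 2 stood apart. Its log2 difference was -0.54 with all libraries, -1.20 without shNC replicate 1 and 0.11 without shNC replicate 2. KRT10-AS1, on the opposite strand to KRT10, rose (6.02 and 5.27 FPKM in shWDR43 against 3.52 and 3.68 FPKM in shNC; limma adjusted p = 0.0364). It lost its call in 5 of 12 alternatives: without shWDR43 replicate 1 (0.223), under median-ratio (0.0517) and upper-quartile scaling (0.0527), with the replicate block (0.0502) and without the filter (0.132). KRT222, a keratin-like gene, did not pass (log2 difference -0.08).

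Among 13 other keratins below the filter and not at 0 throughout, 5 had both shWDR43 libraries above both shNC libraries and 1 the reverse, against 13.8% and 21.2% of all genes below the filter. Singled out after their values were seen, the 5 were KRT6A, KRT16, KRT32, KRT12 and KRT9, and the 1 was KRT14. KRT12 (0.0918 and 0.0713 FPKM) and KRT9 (0.061 and 0.0298 FPKM) were detected in shWDR43 and at 0 in both shNC libraries. KRT14 was at 0 in both shWDR43 libraries and at 0.0969 and 0.072 FPKM in shNC. Like KRT6A, these genes entered the count only through the group where they were higher. The counts are therefore descriptions and do not support a rise. KRT6A, a wound-induced type II chain, was at 0.369 and 0.446 FPKM in shWDR43 and listed at 0 in both shNC libraries. KRT16, its usual type I partner, was at 0.349 and 0.292 FPKM in shWDR43 and 0.0935 and 0.0824 FPKM in shNC. KRT32, a hair keratin, was at 0.744 and 0.582 FPKM in shWDR43 and 0.320 and 0.316 FPKM in shNC. In the fit without a filter none of these passed with limma (lowest adjusted p = 0.125, KRT6A), and that fit called 17 genes in all. No counting error can be given at these levels, since the depth is unknown.

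**Figure D5:**
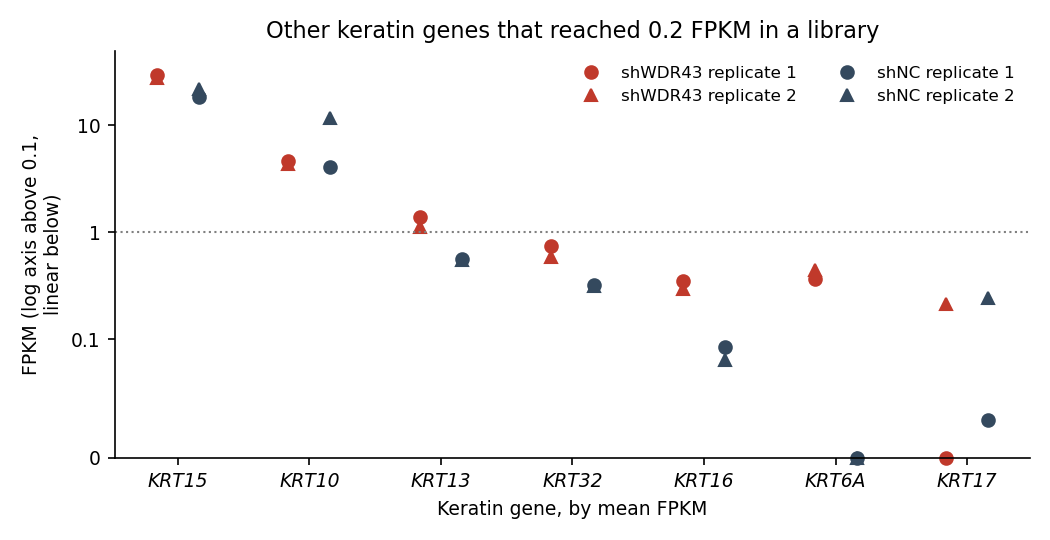
FPKM in each library of the 7 other keratins that reached 0.2 FPKM, on an axis that is logarithmic above 0.1 FPKM and linear below, with shWDR43 left of shNC for each gene, circles for replicate 1 and triangles for replicate 2, and a dotted line at 1 FPKM. KRT15, KRT13, KRT32, KRT16 and KRT6A are higher in both shWDR43 libraries, and shNC replicate 2 stands apart for KRT10 (11.7 FPKM).

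Of 15 tested genes of desmosomes, hemidesmosomes and plakins, which anchor keratin filaments, 2 rose, 1 fell and 12 did not pass. Over all tested genes 4.79% rose and 1.47% fell, and the median log2 difference was 0.17 in the list and 0.05 over all genes. ITGB4, the hemidesmosomal integrin chain that holds plectin, rose to 1.62 times its level in shNC, where it was at 75.9 and 67.8 FPKM, with both shWDR43 libraries higher (log2 change 0.69 ± 0.09, SE; limma adjusted p = 0.0149). PLEC, the plectin linker gene, was at 66.6 and 70.7 FPKM in shWDR43 and 54.8 and 47.6 FPKM in shNC (log2 change 0.42; adjusted p = 0.0464). PPL, the periplakin gene, fell to 22.8 and 22.5 FPKM in shWDR43, against 30.9 and 29.2 FPKM in shNC (log2 change -0.39; adjusted p = 0.0360). ITGB4 lost its call only without the filter (adjusted p = 0.0921), of 12 alternatives. PLEC lost its call in 7 of 12: without shWDR43 replicate 1 (0.117) or replicate 2 (0.227), without the filter (0.152), under median-ratio (0.0638) and upper-quartile scaling (0.0740), with robust settings off (just at the threshold) and with the replicate block (0.0724). PPL lost its call in 4 of 12: without shWDR43 replicate 1 (0.178) or replicate 2 (0.186), without the filter (0.132) and with the replicate block (0.0684). The desmosomal linker DSP was at 57.4 and 57.4 FPKM in shWDR43 and 60.1 and 54.2 FPKM in shNC.

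In the next lists too, the counts stand against 4.79% risen and 1.47% fallen over all tested genes. Of 8 tested keratin-binding regulators 1 rose, SFN, whose 14-3-3 sigma protein binds phosphorylated keratins. SFN was at 138 and 124 FPKM in shWDR43 and 49.4 and 55.8 FPKM in shNC, with a log2 change of 1.30 ± 0.10 (SE; limma adjusted p = 0.00304), and it passed under all 12 alternatives. FAM83H, which organises keratin filaments through casein kinase 1, did not pass (log2 difference 0.38, adjusted p = 0.0757). Of 9 other intermediate filament genes tested 1 rose, LMNA, the lamin A/C gene of the nuclear lamina, at 153 ± 13.1 FPKM in shWDR43 and 107 ± 10.1 FPKM in shNC (SD, n = 2 each; log2 change 0.51; adjusted p = 0.0379). LMNA lost its call in 6 of 12 alternatives: without shWDR43 replicate 1 (adjusted p = 0.270) or replicate 2 (0.0617), under median-ratio (0.0693) and upper-quartile scaling (0.0549), with the replicate block (0.0637) and without the filter (0.133). VIM, the mesenchymal filament gene, was at 2.60 and 1.97 FPKM in shWDR43 and 3.11 and 3.26 FPKM in shNC and did not pass (adjusted p = 0.141). The median log2 difference was 0.34 over the regulators and -0.25 over the other filament genes. The latter was the value of DES, at 0.719 and 0.895 FPKM in shWDR43 and 1.01 and 1.28 FPKM in shNC. DES met the expression filter only through its shNC libraries, where it was higher, so that median does not support a fall.

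Of 13 tested transcription factor genes linked to keratin genes 1 rose, ETS1 (13.8 and 15.0 FPKM in shWDR43 against 10.7 and 10.4 FPKM in shNC; log2 change 0.41, limma adjusted p = 0.0428). ETS1 lost its call in 6 of 12 alternatives: without shWDR43 replicate 1 (0.108) or replicate 2 (0.274), under median-ratio (0.0585) and upper-quartile scaling (0.0683), with the replicate block (0.0679) and without the filter (0.138). The AP-1 genes JUN and FOSL1 had log2 differences of -0.02 and 0.07, and KLF4 and CDX2 each had -0.03. DSP, FAM83H, VIM, DES, VIL1, LGALS4, LUM, ELF3, JUN, FOSL1, KLF4, CDX2, EPCAM, CDH1 and CLDN3 were named after their values were seen. Among 7 tested intestinal epithelial markers 2 rose, the tight junction genes CLDN7 (log2 change 0.57; adjusted p = 0.0234) and CLDN4 (1.06; adjusted p = 0.0306). CLDN4 was at 56.5 and 83.3 FPKM in shWDR43 and 27.7 and 37.6 FPKM in shNC, and lost its call without shNC replicate 1 (adjusted p = 0.248) or replicate 2 (0.134), with the crossed replicate block (0.215) and without the filter (0.132). CLDN7 lost its call only without the filter (0.121), of 12 alternatives. EPCAM and CDH1 had log2 differences of -0.07 and -0.11. The claudin gene CLDN3 had -0.26 (limma adjusted p = 0.257), with both shWDR43 libraries below both shNC libraries. The median log2 difference was -0.03 over the tested intestinal markers and -0.02 over the factor genes, against 0.05 over all tested genes. The 13 mitochondrial mRNAs had a median log2 difference of -0.08, with 0 called by limma and 1 at an unadjusted p below 0.05. Of all tested genes, 26.4% were below that unadjusted threshold. The levels of mitochondrial mRNAs do not measure RNA quality, which was not tested. The smallest adjusted p-values were 0.178 for MT-ATP8 and 0.304 for MT-ATP6. MT-ATP8 passed without shNC replicate 1 (-0.32, adjusted p = 0.0221) or shNC replicate 2 (-0.31, adjusted p = 0.0164).

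The genes nearest in pattern were found by the root-mean-square difference of centred log2(FPKM + 1) values over the 4 libraries. For KRT7 these were LAMA3, a laminin chain gene of the basement membrane (0.105), SAP30-DT (0.106) and ATP6V0D1, a proton pump subunit gene (0.120). LAMA3 was at 5.82 and 5.49 FPKM in shWDR43 and 3.05 and 2.31 FPKM in shNC. For KRT8 they were PSMD13, a proteasome subunit gene (0.00600), PFN2, a profilin gene (0.00700), and SPNS2 (0.00700). Within 0.1 there were 751 genes for KRT8 and 0 for KRT7, among the genes with a symbol of the 13303 tested. This distance depends on the size of the difference (0.87 for KRT7 and 0.50 for KRT8) and on replicate scatter, so the counts are descriptions.

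Over all 13303 tested genes, 833 (6.26%) changed in shWDR43, 637 upward and 196 downward. After upper-quartile scaling the split was 327 to 287, and the median log2 difference of all genes moved by -0.06. Under that scaling KRT7 passed with a log2 change of 0.81 (limma adjusted p = 0.0488), and KRT8, at 0.43, did not pass (0.0648).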

How the data were processed

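RNA of 4 HCT116 samples was sequenced. Per the labels' protocols, 1 ug of Trizol-extracted total RNA entered an Illumina TruSeq kit. The tools HISAT2, RSEM, edgeR, Trimmomatic, FastQC and CASAVA 1.8 and the build GRCh38 are named, without role or order, per the submitters' processing notes. Deposited values were taken to be FPKM, judged from sums of 393582 to 413758 per library; TPM over part of the genes is possible. Low values showed no whole-read steps (at most 1.05% of genes in a 1% window of ratios), so depth is unknown and no count test was run.

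Symbols came from the name table (29170 of 29286 genes, besides 1 blank entry). Limma 3.58.1 (R 4.3.3) was run on log2(FPKM + 1), with genes at 1 FPKM in 2 libraries, group as the only term, trend and robust moderation, and two-sided p-values adjusted by Benjamini-Hochberg over 13303 genes. This log scale understates changes of low genes. Coding sequences (GENCODE 29) were compared with Biopython 1.88 and blastn 2.17.0. Named genes were the 9 members, other keratins at 1 FPKM in 2 libraries, up to 4 changed genes per list (or the 2 with the smallest p), and the 3 nearest in pattern to each changed member. Members and lists were chosen with earlier results of these data known. RefSeq proteins were not used here.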

Additional observations from a re-analysis of the deposited data

How the results depend on the processing

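Results were recomputed with a pseudocount of 0.1, no filter, a filter at 5 FPKM, median-ratio and upper-quartile scaling, robust settings off, a replicate block, a crossed block and leaving out each library. The number of keratins changed, 2 as reported, was 0 without the filter and 1 under median-ratio scaling, upper-quartile scaling or the replicate block, and ran from 1 to 4 when a library was left out. Over all genes, 833 as reported became 17 without the filter, 450 under median-ratio scaling, and 391 to 2610 when a library was left out. The replicate block called 413 genes upward and 150 downward. The deviations of same-numbered libraries correlated at -0.147, and pairing them crosswise called 1954 genes; the labels give no shared source for the numbers. Differences with a changed sign were those of KRT80, which ran from -0.10 to 0.19 when a library was left out (-0.02 without shWDR43 replicate 1), and KRT10, which ran from -1.20 to 0.11, the upper value without shNC replicate 2. The cause was not tested. With 1 library left in a group, its variation is taken to equal that of the other group. KRT80 has no value under the 5 FPKM filter. Depth is unknown, so low keratins carry no counting interval.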
